A study of Homo sapiens with 4 samples.

Results

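A set of 4 mature miRNAs tied to metabolism and oxygen supply, hsa-miR-103a-3p, hsa-miR-107, hsa-miR-210-3p and hsa-miR-378a-3p, was examined in small RNA libraries from extracellular vesicles (EVs). The members were taken by name, and all 4 were among the 539 miRNAs listed for both replicates. The EVs came from wild-type MDA-MB-231 cells, a human triple-negative breast cancer line of mesenchymal-like type. In the group 231 EV the cells were kept for 12 h in EV-free DMEM, and in the group 231 -G EV for 12 h in medium without glucose, before EVs were pelleted at 110000 × g for 70 min. Both groups had been grown in DMEM with fetal bovine serum until then, and each held 2 libraries. Both libraries numbered 1 were made after a pretreatment that removes RNA modifications, and both numbered 2 with an NEBNext small RNA kit, so a replicate number names a pair that shares a preparation. The preparation and any other difference between the replicates cannot be told apart, and a single cell line was used.

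MiRNAs guide Argonaute proteins to mRNAs mainly through the seed, bases 2 to 8 of the mature strand, and lower the output of those mRNAs. MiR-103a and miR-107 are made from introns of pantothenate kinase genes, whose products start coenzyme A synthesis, and are known as regulators of insulin sensitivity and of Dicer. MiR-210 is the best known target of hypoxia-inducible factor among miRNAs and lowers the iron-sulphur cluster scaffold ISCU, which restrains mitochondrial respiration. MiR-378a is encoded within PPARGC1B, the gene of the coactivator PGC-1β, and acts on lipid and oxidative metabolism.

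The mature sequences (RefSeq, GRCh38.p14, 5′ to 3′, seed in capitals) show which members can act on the same sites. In the first pair of sequences the base in capitals near the 3′ end marks the position at which they differ.
hsa-miR-103a-3p: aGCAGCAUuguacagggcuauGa
hsa-miR-107: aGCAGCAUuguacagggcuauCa
hsa-miR-210-3p: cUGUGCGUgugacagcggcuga
hsa-miR-378a-3p: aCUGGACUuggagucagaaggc

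Hsa-miR-103a-3p and hsa-miR-107 share the seed GCAGCAU and differ by the substitution G22C, counted from the 5′ end, so a read that ends before base 22 cannot be assigned to either. They were the 2 miRNAs with this seed among the 1423 listed miRNAs with a sequence. Bases 1 to 7 of both, AGCAGCA, are the seed of 6 listed miRNAs of the miR-15 and miR-16 family, shifted by 1 base. The seed UGUGCGU was held by hsa-miR-210-3p alone. The seed CUGGACU was held by 7 of the listed miRNAs with a sequence, hsa-miR-378a-3p and close relatives. Hsa-miR-378d and hsa-miR-378e, listed for replicate 1, had no sequence here and are in none of the seed family counts.

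All loci lie inside a longer gene on the same strand and outside the exons of every GENCODE 29 transcript that spans them. Hsa-miR-103a-3p has 2 genes, MIR103A1 (mature strand at chr5:168560904-168560926, minus strand) in intron 5 of the principal transcript of PANK3, and MIR103A2 (chr20:3917541-3917563, plus strand) in PANK2. MIR107 (chr10:89592756-89592778, minus strand) lies in intron 5 of the principal transcript of PANK1. MIR210 (chr11:568112-568133, minus strand) lies in its host RNA gene MIR210HG, and MIR378A (chr5:149732867-149732888, plus strand) in PPARGC1B. Reads of the mature hsa-miR-103a-3p could not be split between its 2 genes.

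The libraries differed widely in depth and make-up. They held 18397 (231 EV) and 15597 (231 -G EV) reads in pair 1 and 224966 and 170894 in pair 2, so that a read was worth from 4.45 to 64.1 CPM (reads scaled to a library total of 1000000). In pair 1 the share of hsa-miR-182-5p went from 51.0% in 231 EV to 2.73% in 231 -G EV, and leaving it out of the totals shifts every ratio of that pair by -0.99 on the log2 scale. The 5 miRNAs fixed as markers of mesenchymal-like breast cancer cells were detected in all libraries and held 2.14% and 3.10% of pair 1 but 40.6% and 38.0% of pair 2. Of 9 blood cell miRNAs, from 6 to 8 were detected, and their summed share went from 20.1% to 43.0% in pair 1 and from 1.07% to 0.472% in pair 2. By the within-pair test described further on, 3 of 8 detected blood cell miRNAs were higher in 231 -G EV of pair 1 and 8 of 8 were lower in that of pair 2. Once hsa-miR-182-5p was excluded, the pair 1 shares were 41.0% and 44.2% for the blood cell miRNAs and 4.37% and 3.19% for the mesenchymal-like markers. Hsa-miR-451a, the red blood cell miRNA, alone took 19.4% and 40.8% of the full pair 1 totals. Of the 5 mesenchymal-like markers, 2 were higher and 0 lower in pair 1, and 3 were higher and 2 lower in pair 2. Of 6 markers of luminal epithelium, 5 or 6 were detected, and their summed share ranged from 0.0205% to 0.532%, with 2 higher in pair 1 and 1 lower in pair 2. Over all miRNAs, 7.91% were higher and 1.79% lower in pair 1 and 9.87% and 8.74% in pair 2. Among markers with at least 50 reads in both libraries of pair 2, some passed in both pairs, higher in pair 1 and lower in pair 2. These were hsa-miR-451a and hsa-miR-142-5p of the blood cell list and hsa-miR-21-5p and hsa-miR-100-5p of the mesenchymal-like list. In pair 1 on totals without hsa-miR-182-5p their ratios were 1.06, 4.76, 0.718 and 1.57, so hsa-miR-21-5p turned, and hsa-miR-142-5p and hsa-miR-100-5p no longer passed.

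The 4 members together took 44 reads (0.239%, 95% Wilson interval 0.178 to 0.321) of 231 EV and 82 reads (0.526%, 0.424 to 0.652) of 231 -G EV in pair 1. In pair 2 they took 4960 reads (2.20%, 2.14 to 2.27) and 2774 reads (1.62%, 1.56 to 1.68). Their sum was thus higher in 231 -G EV of pair 1 and lower in that of pair 2, by more than counting error in each, on library totals. The ratio of pair 1 was 1.11 (0.759 to 1.64) on totals that exclude hsa-miR-182-5p, where no difference was detected (Fisher's exact p = 0.644). Intervals cover counting error only, since amplified reads carried no molecular identifiers to count molecules by.

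The order of the members depended on the preparation. In both libraries of pair 2 the level fell from hsa-miR-103a-3p over hsa-miR-107 and hsa-miR-210-3p to hsa-miR-378a-3p, and no neighbouring intervals overlapped. In 231 EV of pair 1 the order was hsa-miR-103a-3p, hsa-miR-378a-3p, hsa-miR-107 and hsa-miR-210-3p, and each interval overlapped the next. In 231 -G EV of pair 1 hsa-miR-378a-3p stood first, with an interval that overlapped that of hsa-miR-103a-3p. The mature strands are 22 or 23 bases long, so length does not enter these levels, but adapter ligation differs between sequences and between kits.

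**Figure D1:**
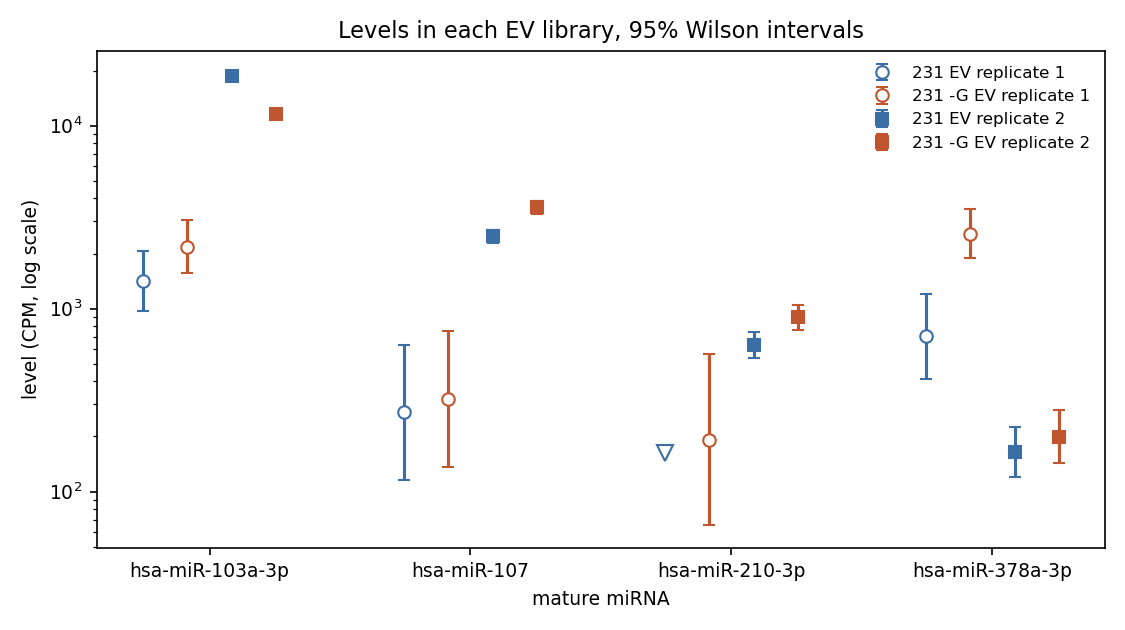
Levels of the 4 members in each library, in CPM on a log axis, with 95% Wilson intervals (those of some high counts are smaller than the symbol). Open circles are libraries of replicate 1 and filled squares those of replicate 2, blue for 231 EV and orange for 231 -G EV, and the open triangle marks the limit of 163 CPM that 0 reads allow. Hsa-miR-103a-3p, hsa-miR-107 and hsa-miR-210-3p stood higher in replicate 2 and hsa-miR-378a-3p stood higher in replicate 1.

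To ask whether glucose starvation changed these miRNAs in EVs across both pairs, the counts were fitted with edgeR's quasi-likelihood test with the pair as a block. A call required an adjusted p under 0.05 with a log2 fold change beyond 1 in size. None of the 4 was called, and neither was any other of the 384 miRNAs tested (0% called, with 5 at an unadjusted p under 0.05). DESeq2 and limma also called 0, with 1 and 13 at an unadjusted p under 0.05. The edgeR log2 fold change was -0.07 (SE 0.90) for hsa-miR-103a-3p, 0.42 (SE 1.02) for hsa-miR-107, 1.16 (SE 1.23) for hsa-miR-210-3p and 1.04 (SE 1.03) for hsa-miR-378a-3p, each with an adjusted p of 0.999. All 4 differences were smaller than, or of the size of, their standard error. An exact permutation of 2 against 2 libraries that ignores the pairs cannot go below a p of 0.333, and one within the pairs has fewer arrangements. Nothing says that the replicates were separate cultures. The study used a fold change threshold of 1.5, which was here required in both pairs on CPM plus 1. That rule was passed by 0 of the 4 in either direction (7.24% of 539 were higher and 6.68% lower).

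Within a pair, the reads of each miRNA were set against the rest of the library in a two-sided Fisher's exact test, with Benjamini-Hochberg adjustment over all miRNAs detected there. This compares libraries and not media. In pair 1, 1 of the 4 members was higher in 231 -G EV and 0 were lower, where 7.91% of the 670 tested were higher and 1.79% lower (9.7% in all). In pair 2, 2 were higher and 1 was lower, where 9.87% of the 618 tested were higher and 8.74% lower (18.6% in all).

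Hsa-miR-103a-3p was the most abundant member in 3 of the 4 libraries, and its ratio on library totals lay on opposite sides of 1 in the pairs. It had 26 reads in 231 EV and 34 in 231 -G EV of pair 1, equal to 1413 CPM (965 to 2070) and 2180 CPM (1560 to 3045). Pair 2 gave 4221 and 1975 reads, equal to 18763 CPM (18210 to 19332) and 11557 CPM (11061 to 12075). The pair 1 libraries overlapped in their intervals and the pair 2 libraries were far apart. The ratio of 231 -G EV to 231 EV was 1.54 (95% exact interval 0.899 to 2.68) in pair 1 (Fisher's exact test, adjusted p = 0.628). In pair 2 it was 0.616 (0.584 to 0.650), a 1.62-fold fall (Fisher's exact test, adjusted p = 1.4e-73). The fall of pair 2 was found under every scaling tried, with ratios from 0.391 relative to hsa-miR-16-5p to 0.616. The ratio of pair 1 did not keep its direction, at 0.777 on totals that exclude hsa-miR-182-5p and 0.859 under TMM scaling. Without the blood cell miRNAs in the totals it was 2.16 (1.26 to 3.75) and passed the test (adjusted p = 0.0295, Fisher's exact test), an alternative chosen after seeing the data. On library totals the summed share of blood cell miRNAs moved the same way as hsa-miR-103a-3p in each pair, and in pair 1 it did not on totals that exclude hsa-miR-182-5p. Its part in the result was not tested.

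Hsa-miR-107, the seed partner, did not follow it in pair 2. It had 5 reads in each library of pair 1, equal to 272 CPM (116 to 636) in 231 EV and 321 CPM (137 to 750) in 231 -G EV. Pair 2 gave 559 and 612 reads, equal to 2485 CPM (2287 to 2699) and 3581 CPM (3309 to 3876). The pair 1 libraries could not be told apart at this depth, while the intervals of pair 2 did not overlap and 231 -G EV stood higher. The ratio was 1.18 (0.271 to 5.13) in pair 1 and 1.44 (1.28 to 1.62) in pair 2, where it passed the test (Fisher's exact test, adjusted p = 5.0e-09). Relative to hsa-miR-16-5p, for which the study also had RT-qPCR primers and whose share went from 7.04% to 11.1% in pair 2, the pair 2 ratio was 0.915 (0.814 to 1.03) and the direction turned. In pair 1 it turned to 0.594 on totals that exclude hsa-miR-182-5p and to 0.657 under TMM scaling.

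The balance between these seed partners was measured within each library, where no scaling to a total can move it. Hsa-miR-107 made up 5 of 31 reads (16.1%, 95% Clopper-Pearson interval 5.45 to 33.7) of the 2 miRNAs in 231 EV and 5 of 39 (12.8%, 4.30 to 27.4) in 231 -G EV of pair 1. In pair 2 it made up 559 of 4780 reads (11.7%, 10.8 to 12.6) in 231 EV and 612 of 2587 (23.7%, 22.0 to 25.3) in 231 -G EV. The intervals of both pair 1 libraries overlapped with each other and with those of both pair 2 libraries. Only the pair 2 libraries were apart from each other, with 231 -G EV above 231 EV. There were 7.55 reads of hsa-miR-103a-3p for each read of hsa-miR-107 in 231 EV of pair 2 and 3.23 in 231 -G EV. The odds ratio was 2.34 (2.06 to 2.66) in pair 2 (Fisher's exact test, p = 2.6e-39, 5.3e-39 adjusted over the pairs). In pair 1 it was 0.768 (0.158 to 3.72, Fisher's exact p = 0.741), an interval wide enough to hold the value of pair 2. Zelen's exact test of equal odds ratios did not separate the pairs (p = 0.128). The share rests on base 22 of 23, and a part of read ends or of sequencing error in it was not tested.

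**Figure D2:**
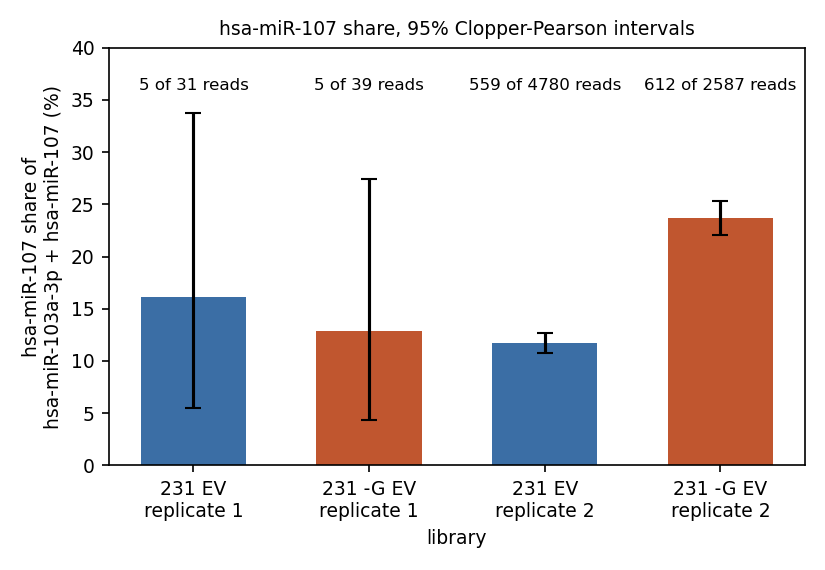
Share of hsa-miR-107 in the summed reads of hsa-miR-103a-3p and hsa-miR-107, in percent, as bars from 0 with 95% Clopper-Pearson intervals, for each of the 4 libraries (blue 231 EV, orange 231 -G EV), with the reads above. The share was 11.7% and 23.7% in 231 EV and 231 -G EV of replicate 2, while the 2 libraries of replicate 1 had 31 and 39 reads and wide intervals.

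Both miRNAs of the seed GCAGCAU together came to 31 and 39 reads in pair 1, equal to 1685 CPM (1187 to 2391) and 2500.5 CPM (1830 to 3416). In pair 2 they came to 4780 and 2587 reads, equal to 21248 CPM (20660 to 21852) and 15138 CPM (14570 to 15728). The seed as a whole followed its larger member. The ratio was 1.48 (0.902 to 2.46) in pair 1 (Fisher's exact p = 0.118) and 0.712 (0.679 to 0.748) in pair 2 (Fisher's exact p = 7.0e-46). The ratio of pair 1 turned to 0.748 (0.455 to 1.24) on totals that exclude hsa-miR-182-5p.

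Hsa-miR-210-3p, the hypoxia-induced member, was scarce in pair 1. It had 0 reads in 231 EV, which allows up to 163 CPM, and 3 reads in 231 -G EV, or 192 CPM (65.4 to 565). Pair 2 gave 143 and 153 reads, equal to 636 CPM (540 to 749) and 895 CPM (764 to 1049). Both libraries of pair 1 were at or under the limit of 3 reads, so no fold is given there, and the libraries of pair 2 did not overlap in their intervals, with 231 -G EV higher. The 95% exact interval of the ratio in pair 1 started at 0.487 and so held 1 (Fisher's exact test, adjusted p = 0.535). In pair 2 the ratio was 1.41 (1.11 to 1.78, Fisher's exact test, adjusted p = 0.0208). With TMM scaling it was 1.33 and no longer passed the test (Fisher's exact test, adjusted p = 0.0823), and relative to hsa-miR-16-5p it was 0.894 (0.707 to 1.13), which turned the direction. Hsa-miR-210-5p, the other arm of the hairpin, was listed for replicate 1 with 0 reads in both libraries.

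Hsa-miR-378a-3p was the 1 member called in pair 1. It had 13 reads in 231 EV and 40 in 231 -G EV, equal to 707 CPM (413 to 1209) and 2565 CPM (1884 to 3490). Pair 2 gave 37 and 34 reads, equal to 164 CPM (119 to 227) and 199 CPM (142 to 278). The pair 1 libraries did not overlap in their intervals, with 231 -G EV higher, and the pair 2 libraries did. The ratio was 3.63 (1.90 to 7.40) in pair 1 (Fisher's exact test, adjusted p = 0.00036) and 1.21 (0.737 to 1.98) in pair 2 (adjusted p = 0.779, Fisher's exact test). On totals that exclude hsa-miR-182-5p, the pair 1 ratio was 1.83 (0.958 to 3.73, Fisher's exact test, adjusted p = 0.436), and with TMM scaling it was 2.02 (1.06 to 4.12, Fisher's exact test, adjusted p = 0.221), so the call was lost under both. Without the blood cell miRNAs in the totals it was 5.09 (2.67 to 10.4), and relative to hsa-miR-16-5p it was 5.38 (2.82 to 10.97) and passed (Fisher's exact test, adjusted p = 0.00010). The reference hsa-miR-16-5p had 70 and 40 reads in pair 1, and the interval leaves out their counting error. In pair 2 the ratio was 0.768 relative to hsa-miR-16-5p and between 1.14 and 1.21 under the other scalings.

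**Figure D3:**
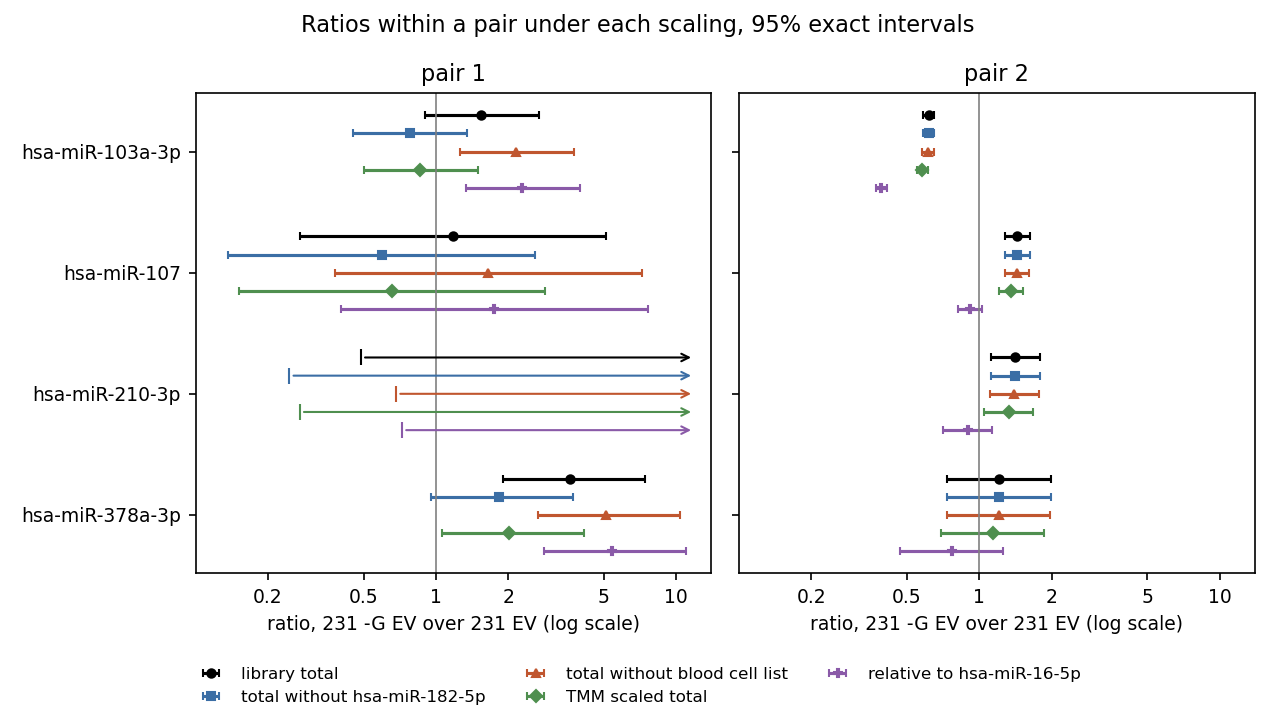
Ratio of 231 -G EV to 231 EV within pair 1 (left) and pair 2 (right) on a log axis for each member, with 95% exact intervals, under 5 scalings: the library total, the total without hsa-miR-182-5p, the total without the blood cell list, the TMM scaled total, and hsa-miR-16-5p as reference. Arrows start at the lower limit where 231 EV had 0 reads. In pair 2 hsa-miR-103a-3p lay below 1 under all 5, and in pair 1 the points of hsa-miR-103a-3p and hsa-miR-107 lay on both sides of 1.

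Whether the pairs moved alike was tested for each member by Zelen's exact test, adjusted over 295 miRNAs that both pairs detected, of which 13.9% differed. The odds ratios of the pairs differed for hsa-miR-103a-3p (Zelen's exact test, adjusted p = 0.0052) and hsa-miR-378a-3p (adjusted p = 0.0405, Zelen's exact test). Both lost the call on totals that exclude hsa-miR-182-5p, with adjusted p of 0.910 and 0.892 by the same exact test. Relative to hsa-miR-16-5p both differed, with adjusted p of 1.2e-06 and 8.4e-05 by that exact test. For hsa-miR-107 and hsa-miR-210-3p the adjusted p was 1 and 0.722 by this exact test.

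Between preparations the members went different ways within 1 medium. In 231 EV, replicate 2 held 13.3-fold (95% exact interval 9.05 to 20.3) the share of hsa-miR-103a-3p that replicate 1 held, and 9.14-fold (3.89 to 28.3) that of hsa-miR-107. In 231 -G EV the values were 5.30-fold (3.78 to 7.68) and 11.2-fold (4.76 to 34.5). Hsa-miR-378a-3p was instead 4.30-fold (2.10 to 8.27) lower in replicate 2 of 231 EV and 12.9-fold (7.96 to 20.99) lower in that of 231 -G EV. On totals that exclude hsa-miR-182-5p the values of 231 EV moved to 6.52-fold (4.45 to 10.00) for hsa-miR-103a-3p, 4.49-fold (1.91 to 13.9) for hsa-miR-107 and 8.74-fold (4.26 to 16.8) lower for hsa-miR-378a-3p. None of these intervals held 1 under either total. For hsa-miR-210-3p in 231 -G EV the ratio was 4.65 (1.56 to 22.8), on 3 reads in replicate 1. In 231 EV, with 0 reads in replicate 1, the interval of the ratio began at 3.13, and at 1.54 once hsa-miR-182-5p was excluded.

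Relatives of hsa-miR-378a-3p had few reads, and some were listed for 1 replicate alone. Those listed and detected that had a sequence here with the same seed are shown to mark how close they are (RefSeq, GRCh38.p14, seed in capitals).
hsa-miR-378c: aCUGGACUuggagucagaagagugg
hsa-miR-378f: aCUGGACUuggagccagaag
hsa-miR-378h: aCUGGACUuggugucagaugg
hsa-miR-378i: aCUGGACUaggagucagaagg
hsa-miR-422a: aCUGGACUuagggucagaaggc

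Counted from the 5′ end of hsa-miR-378a-3p, hsa-miR-378i differs by U9A, hsa-miR-378f by U14C and hsa-miR-378h by A12U and A19U. Hsa-miR-378c shares the first 20 bases of hsa-miR-378a-3p, so reads of up to that length cannot be split between them. In pair 1, hsa-miR-378h had 3 and 8 reads, hsa-miR-378i had 4 and 4, hsa-miR-378c had 1 and 4 and hsa-miR-378f had 1 and 2 in 231 EV and 231 -G EV. In pair 2, hsa-miR-378c had 0 and 1 reads, hsa-miR-378f had 1 and 0 and hsa-miR-422a had 0 and 2, while hsa-miR-378h and hsa-miR-378i were not listed for that replicate. Hsa-miR-378d and hsa-miR-378e, whose sequences were not used here, had 0 and 3 and 0 and 1 reads in pair 1. None of these relatives passed Fisher's exact test after adjustment in either pair (adjusted p from 0.484 to 1), and hsa-miR-378b, hsa-miR-378g and hsa-miR-378j had 0 reads wherever they were listed.

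In pair 1 the seed family of hsa-miR-378a-3p had 7 listed members with a sequence. Hsa-miR-378a-3p made up 13 of 22 family reads (59.1%, Clopper-Pearson interval 36.4 to 79.3) in 231 EV. In 231 -G EV it made up 40 of 58 (69.0%, 55.5 to 80.5). In pair 2, with 4 listed, it made up 37 of 38 (97.4%, 86.2 to 99.9) and 34 of 37 (91.9%, 78.1 to 98.3). No difference of this share between the libraries was detected in pair 1 (Fisher's exact p = 0.436) or pair 2 (Fisher's exact p = 0.358). The family so counted leaves out hsa-miR-378d and hsa-miR-378e. On library totals it had a ratio of 3.11 (1.87 to 5.34) in pair 1 (Fisher's exact p = 1.6e-06). In pair 2 the family ratio was 1.28 (0.793 to 2.07, Fisher's exact p = 0.295). The pair 1 ratio of the family was 1.57 (0.945 to 2.69) on totals that exclude hsa-miR-182-5p and did not pass (Fisher's exact p = 0.0819).

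The other arm of the hairpin, hsa-miR-378a-5p, was seen in 1 preparation. It had 0 reads beside 13 and 40 of the 3p arm in pair 1, which by the limit of 3 reads allows a share of up to 23.1% and 7.5% of both arms (Clopper-Pearson upper bounds 24.7% and 8.81%). Pair 2 gave 19 and 21 reads, which made up 33.9% (21.8 to 47.8) and 38.2% (25.4 to 52.3) of both arms. No difference between the libraries of pair 2 was detected (Fisher's exact p = 0.695). Between preparations the 5p share differed in 231 EV (Fisher's exact p = 0.0139) and in 231 -G EV (Fisher's exact p = 1.7e-06), and these tests were not adjusted. Of the other hairpin relatives, hsa-miR-103b, which is read from the strand opposite hsa-miR-103a-3p, had 1 and 0 reads in pair 1, and hsa-miR-103a-2-5p had 0 reads in both libraries of pair 2.

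**Figure D4:**
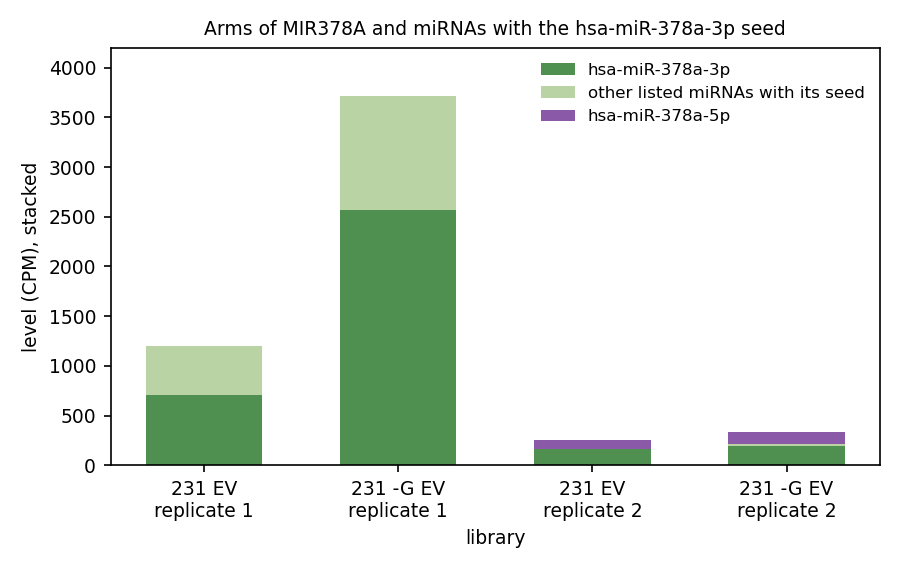
Stacked levels in CPM of hsa-miR-378a-3p, of the other listed miRNAs with its seed (those with a sequence here), and of the opposite arm hsa-miR-378a-5p, in each of the 4 libraries. Hsa-miR-378a-5p appeared in both libraries of replicate 2 (19 and 21 reads) and in neither of replicate 1, and the seed family was largest in 231 -G EV of replicate 1 (58 reads).

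MiRNAs with the pattern closest to each member across the 4 libraries were sought among those with at least 10 reads in each pair, by the Euclidean distance of log2(CPM + 1) values after subtracting their mean. Hsa-miR-103a-3p was nearest to hsa-miR-21-5p (distance 0.51) and hsa-let-7b-5p (0.71), of 89 candidates. Hsa-miR-107 was nearest to hsa-let-7b-5p (0.61) and hsa-miR-30e-5p (0.64), and hsa-miR-378a-3p to hsa-miR-17-5p (0.82) and hsa-miR-200c-3p (0.87). A near pattern did not always change alike within a pair. Hsa-let-7b-5p had log2 ratios of -0.17 and -0.09 in pairs 1 and 2, beside 0.24 and 0.53 for hsa-miR-107. Hsa-miR-200c-3p had 1.82 and -0.96, beside 1.86 and 0.27 for hsa-miR-378a-3p. Hsa-miR-30e-5p and hsa-miR-17-5p were higher in 231 -G EV of both pairs, as their members were. Hsa-miR-21-5p had 356 and 430 reads in pair 1 and 68029 and 39805 in pair 2, with ratios of 1.42 in pair 1 and 0.770 in pair 2, and the former turned to 0.718 on totals that exclude hsa-miR-182-5p. For hsa-miR-210-3p, the nearest of 90 candidates was hsa-miR-23a-3p (distance 3.53). Hsa-miR-210-3p itself was below the limit of 10 reads in pair 1, with 0 and 3 reads. Its log2(CPM + 1) value at 0 reads was set by the added 1. This distance therefore cannot decide whether hsa-miR-210-3p has a close neighbour. Hsa-miR-21-5p and hsa-miR-200c-3p were also on the mesenchymal-like and the luminal marker list. These distances describe 4 points, most of which differ by preparation.

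A list of 18 hypoxia-associated miRNAs, which includes hsa-miR-103a-3p, hsa-miR-107 and hsa-miR-210-3p, gave the wider setting. In pair 1, 16 were detected, of which 5 were higher in 231 -G EV and 0 lower by Fisher's exact test (7.91% and 1.79% of all 670). The median log2 ratio (0.5 reads added to each count) was 1.03 beside 0.24 over all 670. In pair 2, 18 were detected, 8 were higher and 4 lower (9.87% and 8.74% of all 618), and the median was 0.23 beside -0.09 over all 618. On totals that exclude hsa-miR-182-5p, the 5 calls of pair 1 came to 0 (2.69% of all 669 were higher and 5.08% lower) and the median to 0.05 beside -0.75. Relative to hsa-miR-16-5p the median of pair 2 was -0.43 beside -0.74.

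Within that list the cluster partners hsa-miR-23a-3p, hsa-miR-24-3p and hsa-miR-27a-3p passed in both pairs, higher in 231 -G EV each time on library totals. Their ratios were 6.29, 3.54 and 4.06 in pair 1 and 1.45, 1.37 and 2.40 in pair 2. On totals that exclude hsa-miR-182-5p the pair 1 ratios were 3.17, 1.78 and 2.05, and none passed. On library totals hsa-miR-26a-5p went opposite ways like hsa-miR-103a-3p, with ratios of 2.17 in pair 1 and 0.661 in pair 2. The latter rests on 2303 and 1156 reads. Once hsa-miR-182-5p was excluded, the pair 1 ratio of hsa-miR-26a-5p was 1.09 (0.782 to 1.54). It then no longer passed (Fisher's exact test, adjusted p = 0.925).

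A list of 20 miRNAs of glucose and lipid metabolism, which includes hsa-miR-103a-3p, hsa-miR-107 and both arms of MIR378A, was read the same way. In pair 1, 17 were detected, 4 were higher and 1 was lower, against 7.91% and 1.79% over all 670, with a median log2 ratio of 0.62 beside 0.24 over all. In pair 2, 19 were detected, 7 were higher and 4 lower, with a median of 0.53 beside -0.09 (9.87% higher and 8.74% lower over all 618). On totals that exclude hsa-miR-182-5p, 1 was higher and 1 lower in pair 1 (2.69% and 5.08% of all 669), and the median was -0.37 beside -0.75. Hsa-miR-148a-3p passed as higher and hsa-miR-143-3p as lower in both pairs. Hsa-miR-122-5p, the liver miRNA, was 3.33-fold higher in pair 1 on 17 and 48 reads (a ratio of 1.68, with the call lost, once hsa-miR-182-5p was excluded) and 2.52-fold lower in pair 2 on 298 and 90 reads.

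Short sequence runs linked to EV loading were looked up in the mature sequences, on the strand sequenced. The run CAUUGC of hsa-miR-33a-5p, which the study altered in pulldowns of the RNA-binding protein ACO1, is in none of the members. The shorter run CAUUG, which lies within it, is present in hsa-miR-103a-3p and hsa-miR-107 and in 1.97% of the 1423 listed miRNAs with a sequence. Of the 20 with this run that were detected in pair 2, 5 were higher in 231 -G EV and 3 lower (9.87% and 8.74% of all 618), and these 2 members were on opposite sides. Besides hsa-miR-103a-3p the lower ones were hsa-miR-199a-3p and hsa-miR-199b-3p, whose edgeR fits were identical, so they may not count separately. The median log2 ratio of those 20 was 0.42 beside -0.09 over all. In pair 1, 17 were detected, of which 2 were higher and 0 lower on library totals (7.91% and 1.79% of all 670), with a median of 1.67 beside 0.24. The run GGAG, known as a binding motif of hnRNPA2B1, is present in hsa-miR-378a-3p and in 18.3% of the 1423. In pair 1, 8 of the detected miRNAs with this run (7.48%) were higher and 2 (1.87%) lower, with a median of 0.24 beside 0.24 over all. In pair 2, 2 of 55 were higher and 5 lower, with a median of -0.36 beside -0.09. A match is a description of the letters and not a binding site.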

How the data were processed

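Small RNA sequencing counts of EV libraries from MDA-MB-231 cells were used, 2 of 231 EV and 2 of 231 -G EV. The authors deposited whole-number read counts per mature miRNA and, beside them, CPM values (headed TPM for replicate 2), which equal the count over the library total times 1000000. Per the study's methods, reads were trimmed, filtered against Rfam, aligned and matched to miRBase, without separating the preparations. The submitters' processing notes name hg38, cutadapt, Bowtie and Bowtie2.

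The file holds a table for each replicate, with 1315 and 843 rows, the latter including 33 predicted miRNAs. A miRNA absent from a table was treated as unknown there. Counts were fitted with edgeR 4.0.16 (R 4.3.3), on the library totals, with the replicate number entering as a block, over the 384 miRNAs that both tables list and at least 2 libraries detected. The SE is the log2 fold change over the square root of F. The pairing comes from the labels, which give both libraries of a number the same preparation. Libraries of the same number deviated together from the group means (correlation 0.59). Fisher's and Zelen's exact tests and intervals used SciPy 1.17.1. The edgeR, Fisher and Zelen steps were tested on simulated data. Ratios set reads over library totals. Adjustment was by Benjamini-Hochberg. Fitted alternatives used TMM, DESeq2 1.42.0, limma 3.58.1 on log2(CPM + 1), no block, other filters on low counts and totals without hsa-miR-182-5p. The 4 members, the lists and the alternatives were chosen with earlier results of these data known. Beyond the members, named miRNAs were their hairpin arms and numbered relatives, list members with at least 50 reads in both libraries of pair 2 that passed in both pairs, and the 2 nearest patterns of each member. Hsa-miR-182-5p, hsa-miR-451a and hsa-miR-16-5p were named where a scaling or a marker turned on them. Hsa-miR-33a-5p, hsa-miR-199a-3p and hsa-miR-199b-3p were named with the sequence runs. Relatives' seeds and loci come from RefSeq GRCh38.p14 (1423 of 1586 listed names matched) and GENCODE 29.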

Additional observations from a re-analysis of the deposited data

Results flagged for a closer look

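The change of hsa-miR-103a-3p differed between the pairs by the test of the difference itself (Zelen's exact test, adjusted p = 0.0052), with ratios of 1.54 and 0.616. The change of hsa-miR-378a-3p also differed (Zelen's exact test, adjusted p = 0.0405), with ratios of 3.63 and 1.21. The pairs differ in preparation and depth, which cannot be told apart, and neither difference passed on totals that exclude hsa-miR-182-5p (exact test, adjusted p 0.910 and 0.892), while both passed relative to hsa-miR-16-5p (exact test, adjusted p 1.2e-06 and 8.4e-05).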

How the results depend on the processing

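Of 141 alternative values over 55 results, 112 were counted as the same. For most kinds this means the same direction and side of the threshold. For added CPM it means a value within the main interval. For a left-out replicate it means a shift below the standard deviation of the pairs' log2 ratios. Excluding hsa-miR-182-5p moved pair 2 ratios by only -6.4e-05 on the log2 scale, so those values could hardly change. The count of called miRNAs was 0 with the block and 1 with every miRNA above 0 in at least 1 library, 2 with at least 10 reads over the 4 libraries and 1 on totals that exclude hsa-miR-182-5p, none of them a member. With no replicate block it was 0, with 4 at an unadjusted p under 0.05, and dropping the replicate block changed no call of a member. Over 7 model alternatives the adjusted p of the members ranged from 0.988 to 1.00, and the largest shift was that of hsa-miR-210-3p to a log2 fold change of 4.04 with limma, where 0 reads set the value. Leaving out a replicate gives the value of 1 pair, with no test. The log2 fold change then ranged from -0.70 to 0.62 for hsa-miR-103a-3p, from 0.23 to 0.53 for hsa-miR-107 and from 0.27 to 1.85 for hsa-miR-378a-3p. For hsa-miR-210-3p it was 0.49 without replicate 1, and none is given without replicate 2, because 231 EV had 0 reads in pair 1. Its pair 1 ratio is set by the pseudocount, at 193 with 1 CPM added (the value that entered the 1.5-fold count) and 2.92 with 100 CPM added.

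On totals that exclude hsa-miR-182-5p, the pair 1 ratios of hsa-miR-103a-3p and hsa-miR-107 turned to 0.777 and 0.594, that of hsa-miR-378a-3p came to 1.83 with its call lost, and in pair 1 the summed reads of hsa-miR-103a-3p and hsa-miR-107 turned to 0.748 and hsa-miR-21-5p to 0.718 (this total was applied to summed reads, to list miRNAs and to ratios between preparations after seeing the data), and the differences between pairs lost theirs (adjusted p 0.910 and 0.892, exact test). With TMM scaling the pair 1 ratios were 0.859, 0.657 and 2.02 in the same order, and that of hsa-miR-210-3p in pair 2 was 1.33, its call lost. Relative to hsa-miR-16-5p the pair 2 ratios of hsa-miR-107, hsa-miR-210-3p and hsa-miR-378a-3p turned to 0.915, 0.894 and 0.768. Without the blood cell miRNAs in the totals, chosen after seeing the data, the pair 1 ratio of hsa-miR-103a-3p was 2.16 and passed. These scalings act by construction through the totals or the reference. Adding hsa-miR-103b to hsa-miR-103a-3p left the pair 1 odds ratio at 0.797, and no such value exists for pair 2, where it was not listed. In pair 1 a member with 5 reads had an interval spanning 0.271 to 5.13, so changes of that size were not detectable at this depth.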
